A study of Rattus norvegicus with 9 samples.

Results

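Isoforms that the rat annotation does not list, but that belong to genes it does list, were examined in bone marrow mesenchymal stem cells (MSCs) and in the neural progenitor-like cells (NPCs) induced from them. Such an isoform was a transcript assembled from the reads without an Ensembl transcript ID, with at least 2 exons, in the same assembled locus as an annotated transcript and overlapping an exon of an annotated transcript on the same strand. The rule found 75120 of them among the 817330 transcripts listed in 9 libraries, of which 555558 carried no Ensembl transcript ID. They lay in 9956 of 26249 annotated genes. The 3 groups of 3 libraries were untreated MSCs at passage 3, MSC-derived NPCs (EGF+bFGF), and MSC-derived NPCs (EGF+bFGF+IGF1), written below as NPCs with IGF-1. The induced cells were kept for 3 days in their medium before RNA extraction. By the methods of the study the cells came from the bone marrow of young Sprague-Dawley rats, and the NPCs grew in suspension in another medium than the MSCs, so that medium and suspension cannot be told apart from the growth factors. By the same methods the NPCs were made from MSCs of the same 3 rats, so that the groups share donors. The labels do not say which rat a library came from, and the tests below treat the libraries as independent.

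Most mammalian genes give rise to several mRNAs. Alternative splice sites, skipped or added exons and retained introns change what lies between the ends, while alternative promoters and polyadenylation sites change the ends themselves. Part of these isoforms encode other proteins, and part differ only outside the coding region or are degraded. The rat annotation has long listed fewer isoforms per gene than those of mouse and human, so that assemblies of rat RNA hold many that it lacks.

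The depth read from the confidence intervals of the deposited values was 39.1 to 51.2 M reads, and the MSC libraries at 42.9, 51.2 and 44.8 M were not the shallow ones. Only genes named in the tables of the study could be given a symbol, and markers could be checked only as far as that. Of the MSC markers, Vim was at 2560 to 3015 FPKM and Itgb1 at 996 to 1217 FPKM in MSCs, and at 629.5 to 879 and 203 to 271 FPKM in the induced cells. Vcam1 went the other way, with 0.0240 to 0.0870 FPKM in MSCs and 2.58 to 6.26 in the induced cells. Of the neural progenitor markers, Nes was at 0.268 to 0.331 FPKM in induced libraries and 0.0530 to 0.152 in MSCs, Prom1 at 0.00600 to 0.0280 and 0.482 to 0.655, and Fabp7 at 0 in every library, while Msi1 overlapped. All 4 were under 1 FPKM, so the labelled induced cells were not marked by them at a sizeable RNA level. Sox1, Sox2 and Pax6 could not be looked up. By flow cytometry the study reports more Sox2, and from its earlier work more Nestin, in NPCs than in MSCs in basal medium. Gfap, a glial marker, reached at most 0.0240 FPKM. Of the leukocyte markers, Cd68, a lysosomal protein of macrophages, was at 8.93 to 14.4 FPKM in induced libraries and 0.226 to 0.502 in MSCs, while Ptprc and Aif1 were at or near 0 in all libraries. The part of other cell types in the results below was not tested. The induced libraries also listed 54871 to 80455 unannotated transcripts of a single exon, against 20415 to 28412 in MSCs.

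The 3 NPC libraries held 9564, 8679 and 8531 unannotated isoforms, the libraries of NPCs with IGF-1 held 8876, 8793 and 8869, and the MSC libraries held 7418, 7286 and 7104. Every induced library was therefore above every MSC library. The means were 8925 ± 559, 8846 ± 46.0 and 7269 ± 158 (SD, n = 3), and the groups differed by an exact permutation test over all arrangements of the 9 libraries (p = 0.0357, adjusted over 16 library values 0.0408, and 0.0571 without MSC library 2). They fell in 6007 to 6433 genes of an induced library and 5402 to 5608 of an MSC library. Between 2 groups of 3 an exact permutation test (2-sided, 20 arrangements) cannot go below p = 0.1, and this smallest value was reached for NPCs against MSCs and for NPCs with IGF-1 against MSCs, with p = 1 between the induced groups.

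The isoforms were sorted by their intron chain, the ordered set of splice junctions that a transcript uses. Over all libraries, 37054 held at least 1 junction that no annotated transcript uses. Another 12060 had the intron chain of an annotated transcript and differed only at their ends. Shortened isoforms, whose chain is a continuous stretch of an annotated chain, numbered 11180 for those lacking introns at the 5' end, 8116 for the 3' end and 1809 for both. The remaining 4901 used annotated junctions only, in a chain that was not a continuous stretch of any annotated chain of the gene, as where an intron is retained. These were not split further by kind.

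**Figure D1:**
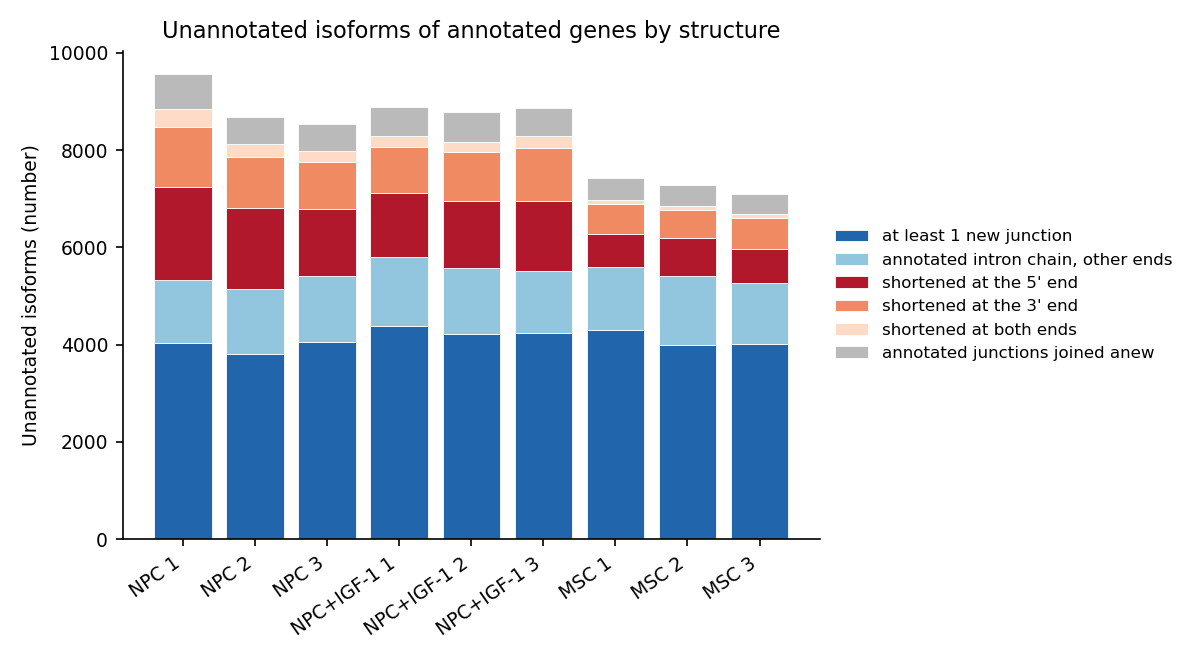
Number of unannotated isoforms of annotated genes (y axis) in each of the 9 libraries (x axis), stacked by structure. Isoforms with a new junction number 3805 to 4376 in every library, and the shortened isoforms number 2497 to 3514 in induced libraries and 1373 to 1439 in MSC libraries.

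The surplus in induced cells lay mostly in the shortened isoforms. These numbered 3514, 2963 and 2553 in NPCs, 2497, 2588 and 2760 in NPCs with IGF-1 and 1373, 1439 and 1418 in MSCs. Isoforms with a new junction numbered 3805 to 4059 in NPCs, 4216 to 4376 in NPCs with IGF-1 and 3997 to 4306 in MSCs. Those with an annotated chain and other ends numbered 1300 to 1362, 1285 to 1427 and 1251 to 1421. The ranges of the last 2 kinds overlapped between MSCs and NPCs, and those of the shortened isoforms did not.

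As shares of a library's unannotated isoforms, those shortened at the 5' end made up 18.3 ± 2.07% in NPCs, 15.5 ± 0.740% in NPCs with IGF-1 and 9.84 ± 0.826% in MSCs (SD, n = 3; exact permutation p = 0.00714, adjusted 0.0327). Isoforms with a new junction made up 42.2, 43.8 and 47.6%, then 49.3, 47.9 and 47.8%, and 58.0, 54.9 and 56.6%. No value of any group lay within the range of another for this share, and its exact permutation p of 0.00357 (adjusted 0.0327) is the smallest that 3 groups of 3 allow. It was the only library value of the 16 in which the NPCs with IGF-1 and the NPCs did not overlap (p = 0.1 by exact permutation). Shortening at the 3' end gave means of 12.2 ± 0.848, 11.5 ± 0.704 and 8.26 ± 0.568% (SD, n = 3; exact permutation p = 0.0143). Isoforms with an exon that held a whole annotated intron, the mark of intron retention, were 10.9 ± 1.34, 10.9 ± 0.392 and 8.03 ± 0.191% (exact permutation p = 0.0357, adjusted 0.0408, and above 0.05 without MSC library 2 or 3). The mean number of exons was 11.5, 11.7 and 12.5 (exact permutation p = 0.0179), and the median length 2632, 2689 and 2808 bases (p = 0.0107 by exact permutation). Isoforms over exons of more than 1 annotated gene were 1.31, 1.47 and 1.42% and did not pass the test (exact permutation p = 0.264).

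**Figure D2:**
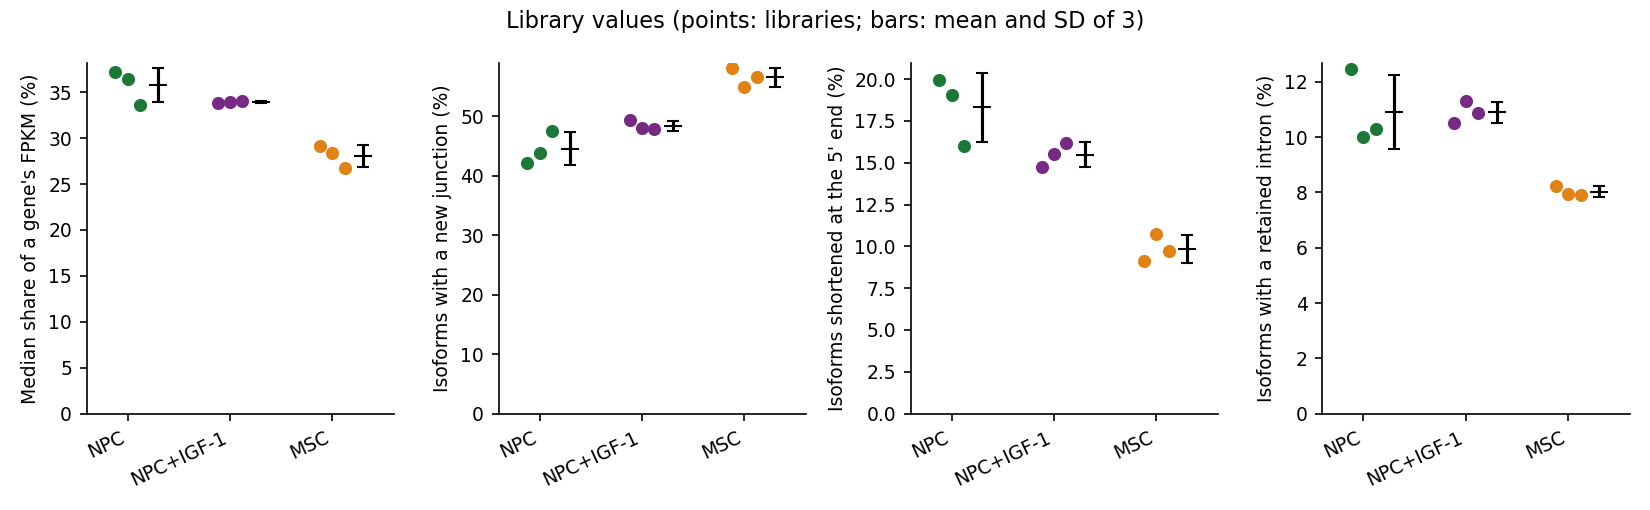
Values of the 9 libraries for the median share of a gene's FPKM held by unannotated isoforms, and for the percent of these isoforms with a new junction, shortened at the 5' end, or with a retained intron (y axes from 0, percent; x axis, the 3 groups; points are libraries and bars the mean and SD of 3). The new-junction percent separates all 3 groups, and in the other panels the MSC points lie below all induced points.

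Shortened isoforms were weak transcripts. In FPKM (fragments per kilobase of transcript and per M mapped fragments), which is a level per length, the median of those shortened at the 5' end was 1.42 to 2.15 over the libraries, against 3.46 to 4.18 for isoforms with a new junction and 3.93 to 4.73 for those with an annotated chain. All shortened isoforms together held 15.2 to 21.1% of the FPKM of unannotated isoforms in NPCs, 14.6 to 15.1% in NPCs with IGF-1 and 7.97 to 12.8% in MSCs. Isoforms with a new junction held 56.0 to 65.9% in every library. Where the 5' end was missing, the first exon began at least 50 bases inside an annotated intron in 59.6 to 66.7% of cases in induced libraries and 50.9 to 56.7% in MSCs. Where the 3' end was missing, the last exon ran that far into an intron in 53.1 to 61.3% and 50.5 to 55.0%, ranges that overlap. The induced libraries, which had more shortened isoforms than the MSC libraries, also had more unannotated transcripts of a single exon, although the order within the 6 induced libraries was not the same for both. The part of the single-exon transcripts in this result was not tested.

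The isoforms with an annotated chain were, almost without exception, transcripts with a longer 3' end. Their 3' end lay at least 100 bases beyond the annotated end in 99.2 to 99.7% of cases, with medians of 1369 to 1527 bases over the libraries. Their 5' end was the annotated base in 54.2 to 67.3%, and the median extension there was 0. The first quartile of the 3' extension was 880.5 to 962 bases over the libraries. How far an end must differ for the assembler to list it apart from the annotated transcript was not known. The part of that rule in these percentages was not tested. Cyp51, the sterol demethylase of cholesterol synthesis (chr4:27078469-27096431, plus strand), was a named example. A single chain, that of its annotated transcript of 10 exons with a 3' end 774 to 914 bases further on, was present in 8 libraries. It held 48.5, 43.5 and 48.5% of the gene's FPKM in NPCs, 48.2, 0 and 39.7% in NPCs with IGF-1 and 36.3, 34.8 and 37.8% in MSCs. The annotated transcript was at 28.1 to 48.8 FPKM in MSCs and 3.21 to 9.89 in induced cells, and the isoform at 17.1 to 26.1 FPKM in MSCs and 0 to 5.65 in induced cells. Kdsr, a reductase of sphingolipid synthesis (chr13:31929862-31962747, minus strand), carried a 3' end 2564 to 2693 bases beyond the annotated end in 6 libraries, with shares of 28.2 to 33.1%, and was listed at 0 in the other 3. Sox9, a transcription factor of neural crest and cartilage (chr10:100965137-100968386, plus strand), had its annotated chain with a 3' end 1323 to 1949 bases longer in 8 libraries, and unannotated isoforms held 76.4 to 100% of its FPKM there. In NPC library 2 it was at 0. These differences between libraries did not pass the test for Cyp51, Kdsr or Sox9 in any comparison.

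Splice sites of the isoforms with new junctions were compared with the annotated ones. There were 19926 distinct new junctions. In 3146 of them both sites were annotated but not joined, in 4783 only the 3' splice site was new, in 6552 only the 5' splice site was new, and in 5445 both were. Of all new junctions, 11038 appeared in a single library and 959 in all 9. Among the 1369 with a new 3' site in at least 3 libraries, 445 lay within 50 bases of the annotated site, and 343 of these (77.1%) were shifted by a multiple of 3 bases, which keeps the reading frame. A shift of 3 bases downstream was the most common, with 109 junctions, followed by 3 bases upstream with 45. Over all 4783, found in any number of libraries, 48.9% of the shifts within 50 bases were multiples of 3. New 5' sites in at least 3 libraries numbered 1758, of which 294 lay within 50 bases and 61.2% of those were multiples of 3, with a shift of 4 bases upstream the most common at 21 junctions. Junctions recurring in several libraries thus held a higher share of frame-keeping shifts than junctions at large. This is a description over sites, which share libraries and genes, and carries no test.

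Whole internal exons were also added. An internal exon that lay inside an annotated intron, with the junctions on its sides reaching annotated sites, was found 604 times in 525 genes. Their length was a multiple of 3 in 65.6%, compared with 40.1% of the 161418 annotated internal exons and 42.4% of the 8227 in the same genes. The share was 56.9% for the 239 exons in a single library and 86.5% for the 52 in all 9. In between it lay at 61.5 to 79.3% without a steady order. They were shorter, with a median of 86 to 91 bases against 123 for annotated exons. At chr1:160749251-160749274 (plus strand), 24 bases were added to the gene of ENSRNOT00000025415 in all 9 libraries, in isoforms at a mean of 86.6 FPKM over the 9 libraries. At chr3:89315004-89315147 (minus strand), 144 bases were added to the gene of ENSRNOT00000012161 in all 9, at 44.7 FPKM. Both were chosen after their values were seen, as exons in all 9 libraries with the highest levels. Of genes with a symbol, Hltf, a DNA helicase of replication repair, had an 87-base exon at chr2:124603004-124603090 in 5 libraries of all 3 groups. Rab30, a small GTPase of the Golgi, had an 84-base exon at chr1:163893255-163893338 in 2 NPC and 3 MSC libraries. Pcbp3, an RNA-binding protein, had a 60-base exon at chr20:14782339-14782398 in the 3 MSC libraries and in no induced library, in isoforms at 0.669 FPKM as a mean over all 9 libraries. Duoxa1, a maturation factor of a dual oxidase, had a 62-base exon at chr3:120784998-120785059 in the 3 MSC libraries only, each time in another intron chain, and that length is not a multiple of 3. Unannotated isoforms of the gene were at 7.33 to 14.7 FPKM in MSCs and 0 to 2.63 in induced libraries. In NPC library 3 and in library 3 of NPCs with IGF-1, isoforms with a new junction began at 120785034, inside the bounds of that exon, and at 120785062, just outside them. Rab30, Pcbp3 and Duoxa1, unlike Hltf, had a summed level under 1 FPKM in at least 1 library. The part of the level of the gene in where their exons were listed was not tested. The sequences of these exons and sites were not analysed here.

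**Figure D3:**
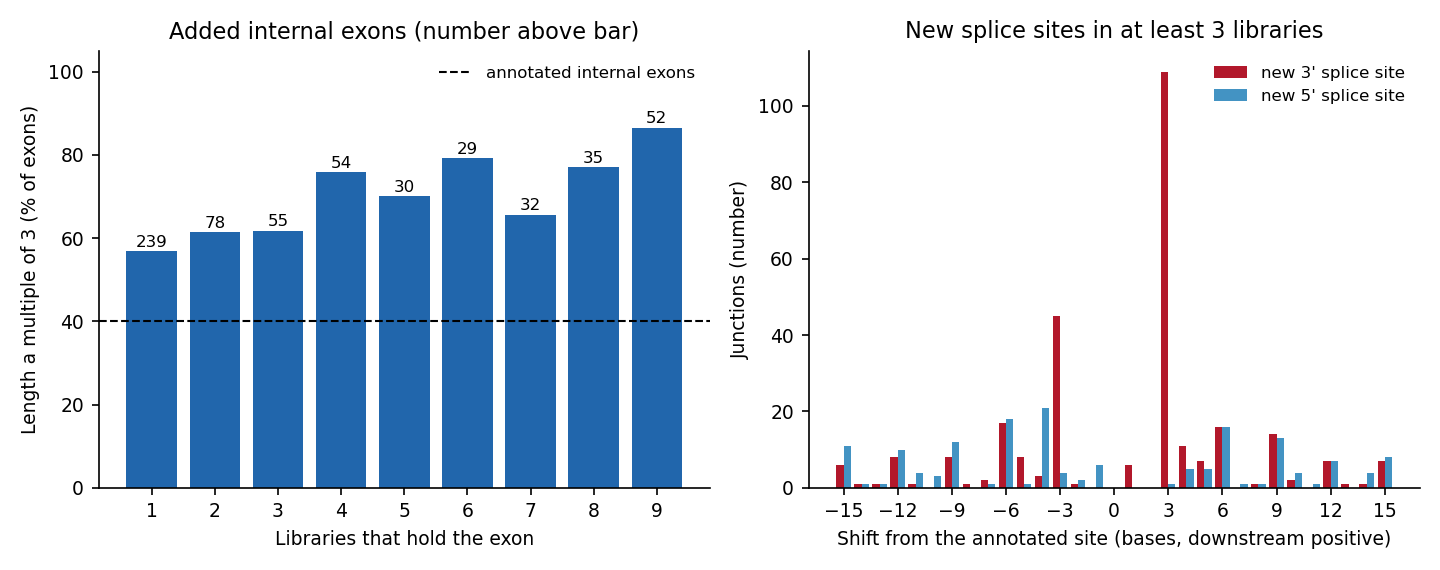
Left, percent of added internal exons with a length that is a multiple of 3 (y axis) by the number of libraries that hold the exon (x axis), with the number of exons above each bar and the share of annotated internal exons, 40.1%, as a dashed line. Right, number of new junctions in at least 3 libraries (y axis) by the shift in bases of the new splice site from the annotated site (x axis, downstream positive), where new 3' sites peak at 3 bases downstream with 109 junctions.

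Most isoforms were seen in a single library. Of 43058 distinct intron chains, 30593 (71.1%) occurred in 1 library and 493 in all 9. Chains of annotated transcripts with new ends recurred most, with 65.5% of 2680 in at least 3 libraries and 349 in all 9. Only 14.1% of the 22917 chains with a new junction and 10.4% of the 14314 shortened chains were in at least 3 libraries, and 95 and 33 were in all 9. In genes of at least 1 FPKM in every library, 31 chains of 36010 were present in all 6 induced libraries and no MSC library, 50 in the 3 MSC libraries only, 41 in the 3 NPC libraries only and 38 in the 3 libraries of NPCs with IGF-1 only. Of 17622 new junctions in these genes, 31 were in the 6 induced libraries only and 56 in the 3 MSC libraries only. Of 568 added exons, 0 and 4 were. These numbers carry no test, and the libraries differ in depth and in the level of each gene.

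**Figure D4:**
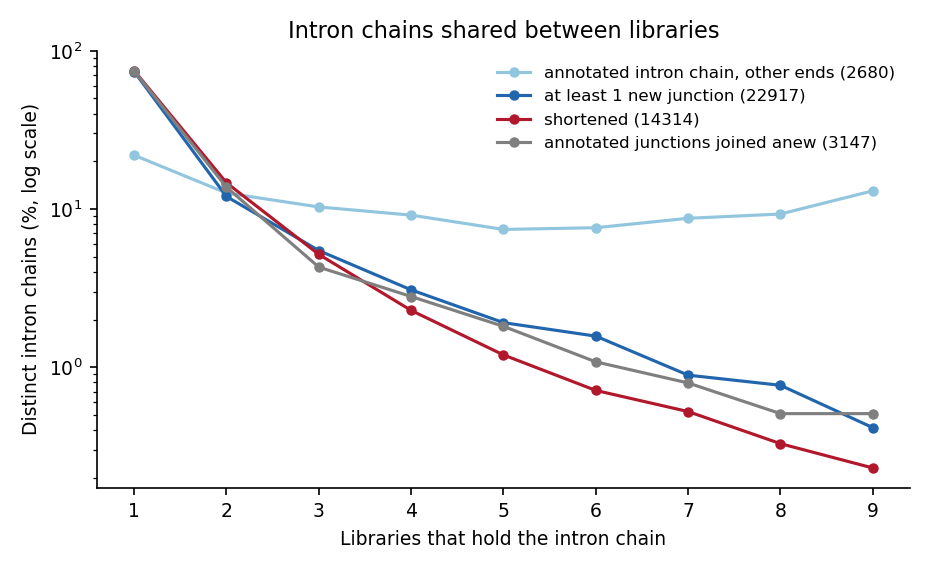
Percent of distinct intron chains (y axis, log scale) by the number of libraries that hold the chain (x axis, 1 to 9), for 4 kinds of structure with the number of chains in the key. Of the chains of annotated transcripts with other ends 349 of 2680 are in all 9 libraries, and of those with a new junction 95 of 22917.

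For each gene, the share of its FPKM held by unannotated isoforms was computed. Of the 9578 genes with at least 1 FPKM in every library, 7771 had such an isoform in at least 1 library and were tested, and 2498 had one in all 9. Genes with more exons more often had one, from 20.5% of the 283 genes of 1 annotated exon to 95.5% of the 1230 genes of 21 or more, and the median share grew from 0 to 45.4%. In NPCs the median share over tested genes was 37.2, 36.4 and 33.6%, in NPCs with IGF-1 33.8, 34.0 and 34.0%, and in MSCs 29.1, 28.4 and 26.8%. The groups differed (exact permutation p = 0.0143, adjusted 0.0327), and the induced groups overlapped. Shares were often at the ends of the scale. Between 30.2 and 33.4% of tested genes in an induced library and 38.4 to 39.7% in an MSC library had a share of 0, and 14.0 to 17.0% had a share of 100%. Unannotated isoforms at less than 10% of the strongest transcript of their gene, the 10% mark below, were all but missing from the files. At least 99.6% of those listed above 0 in any library were at or over that level. A share of 0 therefore means only that no isoform was listed above 0. Whether it lay under the mark or was not assembled for another reason cannot be told from these values, also where the mark is given below. Summed over all genes, the isoforms held 4.47 to 17.2% of a library's FPKM, lowest in NPC library 2 and next in MSC library 2 at 8.03%, and the groups overlapped (exact permutation p = 0.643). Over genes with an annotated transcript of at least 300 bases they held 17.7 to 20.03%, with no difference that passed (exact permutation p = 0.625).

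The first comparison asked which genes used unannotated isoforms more or less in NPCs than in MSCs. Of the 7771 genes, 65 (0.836%) passed limma's test on the log2 ratio of unannotated to annotated FPKM (false discovery rate 0.05 after Benjamini and Hochberg, difference of 1 or more), 46 higher in NPCs (0.592%) and 19 lower (0.244%). In 876 genes (11.3%) the 2 groups did not overlap in share, 636 higher in NPCs (8.18%) and 240 lower (3.09%), and 699 (8.99%) had an unadjusted p under 0.05 by limma. Over all tested genes the median log2 difference was 0.35, and 58.8% were higher in NPCs. In 52 of the 65 the lower group was listed at 0 in all 3 libraries. The mark set out above, a set part of the strongest transcript of a gene, was compared with these 52. In 35 of them the unannotated level of the higher group lay above the mark of every library of the lower group. In 5 it lay under the mark throughout. In 26 of the 65 a single intron chain was shared by all 3 libraries of the higher group. The FPKM of each structure was summed over the 3 libraries of the higher group, and the largest sum was taken to lead. Isoforms with a new junction led in 17 of the 19 genes lower in NPCs and in 12 of the 46 higher. In the 46, an annotated chain with other ends led in 15, shortening at the 5' end in 11 and at the 3' end in 4. Isoforms with a new junction also made up more of all unannotated isoforms in MSCs (56.5%) than in NPCs (44.5%), and the structures of the calls were not tested against this. The count moved with the settings. With only isoforms of a chain that is not annotated 1 gene was called and with only those with a new junction 2, while the 6 libraries of both groups gave 139, and leaving out NPC library 2, NPC library 3 or MSC library 2 gave 103, 140 and 118. Fewer genes passed on the arcsine scale, where a share difference of at least 20 percentage points took the place of the log2 difference. With the replicate number as a block no gene passed, here or in either later comparison, although the labels do not say that a number marks a rat. Without the shortened isoforms the 65 calls became 55, with 27 higher and 28 lower in NPCs, and the median difference over all genes went to 0.09.

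A gene received a symbol only where a library lists its annotated transcripts under an Ensembl gene ID, and loci with an unannotated transcript carry none. The named genes are therefore mostly those with a share of 0 somewhere. Of the 477 genes with 1 intron chain in all 9 libraries, 0 had a symbol, and 666 of the 7771 tested genes had one. Of the 65 calls, 9 had a symbol. Where a group is listed at 0, the log2 difference depends on the 0.1 FPKM added to both sides of the ratio and on the level of the annotated transcripts.

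**Figure D5:**
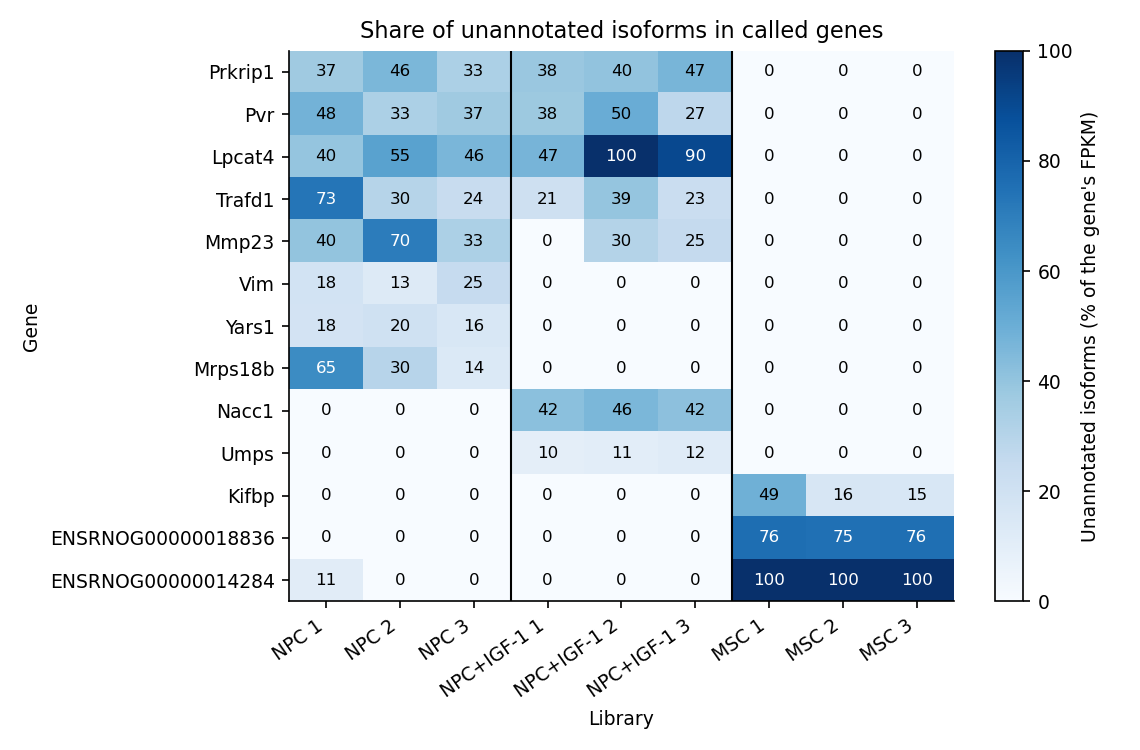
Share of a gene's FPKM held by unannotated isoforms (colour and number, percent) for called genes (rows) in the 9 libraries (columns, with lines between NPC, NPC with IGF-1 and MSC libraries). The upper 5 genes have shares above 0 in most or all induced libraries and 0 in MSCs, Vim, Yars1 and Mrps18b only in NPCs, Nacc1 and Umps only in NPCs with IGF-1, and the lowest 3 mainly in MSCs.

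Prkrip1, an RNA-binding protein that associates with the spliceosome (chr12:25515337-25533620, plus strand), had 1 unannotated isoform, the same in all 6 induced libraries. It had the 6-exon chain of the annotated transcript and a 3' end 1591 to 1602 bases longer in 5 induced libraries and 729 in NPC library 3. It held 37.0, 45.8 and 33.0% of the gene's FPKM in NPCs, 38.5, 40.5 and 46.9% in NPCs with IGF-1 and 0 in the 3 MSC libraries. The annotated transcript was at 4.59 to 6.15 FPKM in induced cells and 6.35 to 9.99 in MSCs, where a level of 0.635 to 0.999 FPKM would have met the 10% mark. The induced libraries listed the isoform at 2.63 to 4.12 FPKM, above it. The log2 difference was 5.77 ± 0.68 (SE; limma adjusted p = 0.00852) for NPCs and 5.97 ± 0.68 (adjusted p = 0.00697) for NPCs with IGF-1. Between the induced groups it was 0.20 (limma adjusted p = 1.00).

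Vim encodes vimentin, the intermediate filament protein of mesenchymal cells and of early neural precursors (chr17:82500858-82509377, plus strand). Unannotated isoforms held 18.5, 13.2 and 24.8% of its FPKM in NPCs and were listed at 0 in the other 6 libraries. They were at 162, 88.8 and 185 FPKM, beside 562 to 717 FPKM of the annotated transcript. Each NPC library held another intron chain, with 1 or 2 new junctions, so no single isoform stood behind the call. In MSCs the annotated transcript was at 2560 to 3015 FPKM, and the 10% mark there, 256 to 301 FPKM, was above the level that the isoforms reached in NPCs. In NPCs with IGF-1 the annotated transcript was at 630 to 826 FPKM and the mark at 63.0 to 82.6 FPKM, below that level. The call (log2 difference 12.58 ± 1.39, limma adjusted p = 0.00834) was not passed when the share itself was tested on the arcsine scale (adjusted p = 0.0583).

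Pvr, the poliovirus receptor, an adhesion protein (chr1:82085299-82100950, minus strand), had shortened isoforms in every induced library, with shares of 48.0, 33.0 and 37.0% in NPCs, 37.5, 50.4 and 27.4% in NPCs with IGF-1 and 0 in MSCs. The 3 NPC libraries shared a 4-exon chain that lacked the 3' part of the 8-exon transcript, and the 3 libraries with IGF-1 shared a chain of the first 2 exons. Both groups passed against MSCs (limma adjusted p = 0.00977 and 0.0103). The annotated transcript itself was at 2.34 to 5.91 FPKM in induced cells and at 20.5, 20.5 and 7.13 in MSCs, where the 10% mark of 0.713 to 2.05 FPKM was not below every isoform level (1.21 to 3.48 FPKM).

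Yars1, the cytosolic tyrosyl-tRNA synthetase (chr5:151109967-151138472, plus strand), had 1 chain of the first 11 of its 13 exons in the 3 NPC libraries. Its shares were 18.0, 20.2 and 15.6% in NPCs and 0 in all other libraries (limma adjusted p = 0.0155 against MSCs). Against NPCs with IGF-1 the same values gave an adjusted p of 0.0614 in limma's test. Mrps18b, a mitochondrial ribosomal protein, likewise had shares of 64.5, 29.7 and 13.8% in NPCs and 0 elsewhere (limma adjusted p = 0.0283), by 2 different chains. In MSCs the 10% mark was 1.05 to 2.51 FPKM for Yars1 and 1.17 to 2.48 FPKM for Mrps18b, so that isoforms at 1.92 to 2.25 and at 2.18 to 9.54 FPKM were not above it in every library. The call of Mrps18b was lost in 12 of 24 alternative settings.

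Trafd1, a zinc-finger protein that restrains innate immune signalling, had shares of 73.4, 30.1 and 23.7% in NPCs, 20.6, 39.5 and 22.7% in NPCs with IGF-1 and 0 in MSCs. A chain of its last 3 exons was present in 4 of the 6 induced libraries. NPCs passed against MSCs (limma adjusted p = 0.0323) and NPCs with IGF-1 did not (adjusted p = 0.0724), and the call of NPCs was lost in 13 of 23 alternative settings. Mmp23, a matrix metalloproteinase, had shares of 40.03, 70.3 and 33.1% in NPCs, 0, 30.5 and 25.1% in NPCs with IGF-1 and 0 in MSCs (limma adjusted p = 0.0232 for NPCs), while its annotated transcript was at 0.561 to 1.35 FPKM in induced cells and 10.9 to 12.3 in MSCs. Its isoforms, at 0.428 to 1.33 FPKM in NPCs, were not above the 10% mark of 1.09 to 1.23 FPKM in MSCs in every library, and the call was lost in 9 of 20 settings.

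Kifbp, a kinesin-binding protein needed for axon growth (chr20:33976300-33995859, minus strand), was higher in MSCs. A new junction present in all 3 MSC libraries gave shares of 49.0, 16.1 and 15.3%, and the 6 induced libraries were at 0 with the annotated transcript at 9.63 to 10.7 FPKM. The difference was -5.07 ± 0.84 (limma adjusted p = 0.0430), and the call was lost in 15 of 24 alternative settings. Txnip, an inhibitor of thioredoxin, was also called lower in NPCs (adjusted p = 0.01003 in limma's test), but its shares overlapped, at 0, 14.0 and 19.6% in MSCs and 0 in all induced libraries. Its annotated transcript was at 111 to 385 FPKM in induced cells and 1.57 to 1.802 in MSCs, and its unannotated isoforms in MSCs were at 0.289 and 0.384 FPKM, under the 10% mark of 11.1 to 38.5 FPKM in NPCs.

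Some calls had no symbol. The gene ENSRNOG00000018836 (chr19:68101910-68127030, minus strand) had 1 isoform of 4 exons with a new junction in the 3 MSC libraries. It held 75.9, 75.2 and 75.8% of the FPKM in MSCs, at 69.5, 64.8 and 39.5 FPKM, and was at 0 in all induced libraries. The annotated transcript was at 12.7 to 22.1 FPKM in MSCs and 17.0 to 22.1 in induced cells, ranges that overlap (log2 difference -9.17 ± 0.72, limma adjusted p = 0.00834). At ENSRNOG00000014284 (chr8:23180772-23185661, minus strand) MSCs listed an isoform with 1 new junction at 37.7, 37.5 and 31.1 FPKM and the annotated transcript at 0. The induced libraries listed the annotated transcript at 12.8 to 18.2 FPKM and no isoform apart from 11.1% in NPC library 1 (log2 difference -14.39 ± 1.27, limma adjusted p = 0.00834).

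In the other direction, the gene of ENSRNOT00000020812 (chr4:222339036-222361316, plus strand) had 1 shortened chain of 10 of its 11 exons in 7 libraries, whose first exon reached 82 to 211 bases into an annotated intron. It was the only transcript listed in the 3 NPC libraries, at 4.29, 3.94 and 4.70 FPKM. In MSCs the full annotated transcript was at 200, 239 and 306 FPKM, with the short chain at 20.4 FPKM in MSC library 1 and 0 in the others. The 10% mark in MSCs was 20.03 to 30.6 FPKM, above the level of the isoform in NPCs, so that the 0 there does not set the groups apart in the isoform itself, and the call was lost in 10 of 21 alternative settings. Shares in NPCs with IGF-1 lay between, at 59.8, 19.8 and 70.4% (NPCs against MSCs, limma adjusted p = 0.0322). ENSRNOG00000037245 (chr1:152140883-152147543, minus strand) had isoforms that retained an intron in all 6 induced libraries, with shares of 29.1, 20.1 and 25.6% in NPCs, 20.003, 23.2 and 25.5% in NPCs with IGF-1 and 0 in MSCs. The annotated transcripts were at 44.2 to 56.1 FPKM in induced cells and 64.0 to 69.1 in MSCs (limma adjusted p = 0.00834 and 0.00697).

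NPCs with IGF-1 were next compared with the same 3 MSC libraries, so that both comparisons share their control. Of 7771 genes, 69 were called (0.888%), 52 higher (0.669%) and 17 lower (0.219%). In 883 genes (11.4%) the groups did not overlap, 579 higher (7.45%) and 304 lower (3.91%), and 633 (8.15%) had an unadjusted p under 0.05 by limma. The median log2 difference was 0.24, and 56.5% of genes had a higher log2 ratio. The median difference in share was 0.42 percentage points. MSCs or the induced group were at 0 in all 3 libraries in 62 of the 69. In 46 of these 62 the unannotated level of the higher group lay above the 10% mark of every library of the lower group, and in 5 under it throughout. A chain was shared by all 3 libraries of the higher group in 23 of the 69. New junctions led in 14 of the 17 lower and 18 of the 52 higher genes. Among named genes, Prkrip1, Pvr, Kifbp (adjusted p = 0.0389) and Txnip were called as above by limma. Lpcat4, an acyltransferase of phospholipid remodelling, had shares of 39.8, 55.2 and 46.2% in NPCs, 47.0, 100 and 90.5% in NPCs with IGF-1 and 0 in MSCs (adjusted p = 0.0387 by limma for NPCs with IGF-1), from 8 chains at a mean summed level of 2.49 FPKM, and this call was lost in 13 of 21 alternative settings. Umps, the last enzyme of pyrimidine synthesis, was at 9.59, 10.5 and 11.8% in NPCs with IGF-1 and 0 elsewhere (adjusted p = 0.0276 by limma), with another chain in each library and shares near the 10% mark, and the call was lost in 12 of 24 settings. The count fell to 1 with only chains that are not annotated and 4 with only new junctions, and was 164 in the 6 libraries alone and 115 without MSC library 2. Without the shortened isoforms 55 genes were called, 34 higher and 21 lower.

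Between the induced groups 20 genes were called (0.257%), 13 higher with IGF-1 (0.167%) and 7 lower (0.0901%), and in 525 genes (6.76%) the groups did not overlap, 231 higher (2.97%) and 294 lower (3.78%), with 440 (5.66%) at an unadjusted p under 0.05 by limma. Nacc1, a transcriptional regulator (chr19:36761771-36777149, minus strand), had shares of 41.9, 45.8 and 41.6% in NPCs with IGF-1 and 0 in NPCs and in MSCs. Libraries 1 and 2 shared a chain with 1 new junction, and library 3 retained an annotated intron instead. Its isoforms were at 2.42 to 2.77 FPKM, and the annotated transcript at 2.86 to 3.89 FPKM with IGF-1, 4.29 to 6.89 in NPCs and 6.85 to 8.55 in MSCs. The log2 difference was 5.41 ± 0.65 against NPCs (limma adjusted p = 0.0251) and 5.86 ± 0.65 against MSCs (limma adjusted p = 0.00697). Vim was lower than in NPCs (-10.71 ± 1.39, limma adjusted p = 0.0380). Between the induced groups the call of Nacc1 was lost in 11 of 23 alternative settings and that of Vim in 14 of 24. The count moved with the settings. A pseudocount of 1 left 0 (limma, 406 genes at an unadjusted p under 0.05), the 6 libraries of the induced groups gave 1, and leaving out a library gave 3, 7, 10 and 11 without library 1 or 3 of NPCs with IGF-1 or library 1 or 3 of MSCs, and 35, 39 and 54 without NPC library 1, 2 or 3.

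Members of the gene lists could be followed only where the files allowed a symbol. The lists of actin and contractile genes (6 tested of 35), focal adhesion and integrin genes (3 of 27), extracellular matrix genes (1 of 36), matrix proteases and inhibitors (3 of 21), mitosis (1 of 30), DNA replication (7 of 26), neural progenitor and neural crest genes (3 of 30), neuronal and glial genes (1 of 26), growth factor signalling (1 of 45), cytosolic ribosomal proteins (2 of 76) and cleavage and polyadenylation factors (1 of 21) had 0 called genes in every comparison, against 0.836, 0.888 and 0.257% of all genes. Mmp23, called in NPCs, is not a member of the protease list. No member was tested for splicing factors (62 genes), nonsense-mediated decay factors (14) and genes known for tissue-specific alternative splicing (43). Of the genes that the study names, 7 of 66 were tested, and Vim and Txnip were the called ones. That list was drawn from these samples and is not independent evidence.

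The medians of these lists rest on few genes. The 6 contractile genes had a median log2 difference of -0.91 for NPCs against MSCs, beside 0.35 over all genes, and the 7 replication genes 2.15. Myl9, a myosin light chain, was at 67.1, 0 and 17.7% in MSCs and 0 in every induced library. Tagln2, an actin-binding protein, was at 0, 78.1 and 23.7% in MSCs and 0 in every induced library. Both came from different chains in each library and did not pass. Mcm7, a subunit of the replicative helicase, had unannotated isoforms in 7 libraries of all groups, with 1 chain of 14 exons and 1 new junction in 6 of them. Its shares were 0, 100 and 100% in NPCs, 47.6, 100 and 100% in NPCs with IGF-1 and 100, 100 and 0% in MSCs. Hes1, a target of Notch signalling, was at 46.4, 36.7 and 37.0% in MSCs, 0 in NPCs and 0, 37.7 and 0% in NPCs with IGF-1. NPCs and MSCs did not overlap for Hes1, yet the difference did not pass (limma adjusted p = 0.276). Tead3, a partner of the Hippo pathway, was at 36.3, 60.3 and 0% in NPCs, 28.8, 16.2 and 14.5% in NPCs with IGF-1 and 0 in MSCs, from 7 chains that each occurred in a single library.

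In some highly expressed genes the shares varied widely within a group. Apoe, the lipid carrier apolipoprotein E (chr1:81878373-81881182, minus strand), had an isoform with a new junction in 4 induced libraries, and library 3 of NPCs with IGF-1 held another one beside it. The shares of all its unannotated isoforms were 0, 26.6 and 0% in NPCs, 100, 22.1 and 90.3% in NPCs with IGF-1 and 0 in MSCs, with 309 to 1419 FPKM where present. The highest value is the sum of 832 and 587 FPKM of both isoforms. The annotated transcript in MSCs was at 18.8 to 33.1 FPKM. The values of NPCs and NPCs with IGF-1 overlapped, and no comparison passed. Mmp3, a matrix metalloproteinase, was at 0, 46.0 and 0% in NPCs, 49.2, 0 and 61.6% in NPCs with IGF-1 and 0 in MSCs, and did not pass either.

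Other genes kept their share throughout. At the gene of ENSRNOT00000007634 (chr4:226844164-226883755, minus strand) 1 chain, with a 3' end 1780 to 1906 bases longer than annotated, was present in all 9 libraries. Its share was 57.7, 53.5 and 54.1% in NPCs, 56.3, 56.6 and 55.8% in NPCs with IGF-1 and 56.4, 52.0 and 55.8% in MSCs, at 12.3 to 21.3 FPKM. The highest level of unannotated isoforms, a mean of 1280 FPKM, was at the gene of ENSRNOT00000042459 (chr12:15745854-15748827, plus strand). Its isoforms were at 378 to 828 FPKM in induced libraries and 2282 to 3016 in MSCs, and their share stayed at 45.1 to 64.7%, while the annotated transcript was at 293 to 1008 FPKM in induced libraries and 2126.5 to 2819.6 FPKM in MSCs. In 7 libraries it was the annotated chain with a 3' end 640 to 678 bases longer.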

How the data were processed

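Polyadenylated RNA of 9 rat libraries, 3 for each of MSCs, NPCs and NPCs with IGF-1, was sequenced by the authors with a kit that keeps the strand (input 300 ng). Per the labels, CASAVA 1.8, bcl2fastq, TopHat, Bowtie2, Cufflinks and Cuffdiff were used, while the methods of the paper describe another route. No source used here names the build of the files, and coordinates are those of the files, counted from 1. Each deposited file is a Cufflinks assembly of 1 library. The FPKM of its transcripts, as deposited by the authors in the attribute text, were used on a linear scale. The deposited score column was not used. The deposited values come without read counts, so depth was read from the confidence intervals. A supplement of the paper lists reads for its NPC and MSC samples, from the other route, and these were not used. Labels do not tie libraries to rats, and p-values measure the spread between these libraries.

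The 29145 annotated transcripts were assigned to genes by Ensembl gene ID (22125) or, for the 7020 others, by overlap. Symbols came from the tables of the paper (2451 genes). Shares were member FPKM over the summed FPKM of annotated and member transcripts of a gene. The test was limma (version 3.58.1, R 4.3.3) with robust moderation and a trend on level, fitted to log2 of the ratio of unannotated to annotated FPKM, each with 0.1 added, in all 9 libraries, for genes of at least 1 summed FPKM in every library. Library values were tested by exact permutation. The paper used no such test. All else was run in Python 3.11.15 with scipy 1.17.1, pandas 2.3.3 and numpy 2.4.6, and plotted with matplotlib 3.10.9.

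Genes were named by a rule: the 10 largest called differences in each direction of each comparison with a mean of at least 5 FPKM and groups that do not overlap, the highest and the most constant isoforms, up to 4 tested members of each list and genes the study names. Other called genes with a symbol, Cyp51, Kdsr, and the added exons were chosen after their values were seen, and at most 2 genes without a symbol are given per direction. Members and lists were chosen with earlier results of these data known.

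The fit was tested on simulated data for NPCs against MSCs with 7771 genes in the step. With a log2 change of 4, 8 of 100 genes were called, and with a change of 8, 29 of 100, with 0 unchanged genes called. Where the spread between libraries was under 1 on the log2 scale, as in 1070 genes, 8 of 23 and 18 of 18 were. The simulation drew normal values around the mean of each gene, without the shares of exactly 0 or 100% seen in the data. It therefore does not show how often genes at those ends are called without a change. The alternatives were other pseudocounts and filters, the arcsine of the share, no trend, the replicate number as a block, 6 libraries, subsets of isoforms by structure or confidence bound, and leaving out each library. For a named gene, only the settings in which it was still tested are counted.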

Additional observations from a re-analysis of the deposited data

Results flagged for a closer look

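The difference between the induced groups was tested directly, and 20 genes passed, 13 higher with IGF-1 and 7 lower (0.257% of 7771 tested, limma). Among them were 2 named genes. For Vim, the log2 difference of NPCs with IGF-1 to NPCs was -10.71, with shares above 0 in 3 of 3 NPC libraries and in no library with IGF-1. For Nacc1 it was 5.41, with shares above 0 in 3 of 3 libraries with IGF-1 and in no NPC library. Both sizes depend on the 0.1 FPKM added to a group listed at 0. With each library left out in turn, the difference was -10.99 to -10.44 for Vim and 5.24 to 5.58 for Nacc1. The number of genes that passed then went from 3 to 54.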

How the results depend on the processing

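The number of genes called changed with the settings more than the values did. On the arcsine scale the size threshold also changed, to a share difference of at least 20 percentage points, so that its counts do not show the scale alone. For NPCs against MSCs the 65 calls became 39 on the arcsine scale, 139 in 6 libraries, 1 with only unannotated intron chains, 2 with only new junctions and 69 to 140 with a library left out. For NPCs with IGF-1 against MSCs the 69 became 33, 164, 1, 4 and 68 to 115. Between the induced groups the 20 became 11, 1, 0, 1 and 3 to 54, and 0 with a pseudocount of 1, 41 with 0.01, 31 with an isoform in at least 3 libraries and 11 without retained introns. With only unannotated chains 375 genes between the induced groups had an unadjusted p under 0.05 by limma. In that setting the log2 difference of Vim stayed at 12.58 in NPCs against MSCs and its adjusted p went from 0.00834 to 0.0924, and the cause of the lower counts was not tested.

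With the replicate block 0 genes passed in any comparison by limma (640, 583 and 384 at an unadjusted p under 0.05). Deviations of libraries with the same number correlated at -0.044 to 0.038, the labels do not tie a number to a rat, and the numbers were not taken to pair the samples, although by the methods of the study MSCs and NPCs came from the same rats. Over 25 named calls and the 565 alternatives in which their genes were still tested, 404 passed as before, 161 no longer passed and 0 changed direction. Settings in which a gene was no longer tested are not among the 565.

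Of the library values, the NPC minus MSC difference in isoforms joined anew was 0.867 percentage points with only unannotated chains (exact permutation over 3 groups, adjusted p = 0.122), 0.886 without isoforms over more than 1 gene (adjusted p = 0.0880) and 0.638 to 1.15 with a library left out, against 0.970 (adjusted p = 0.0408). The median length differed by -153 bases in genes of at least 1 FPKM (adjusted p = 0.0776 by exact permutation) and by -205 to -141 with a library left out. Leaving out MSC library 2 (for some values also MSC library 3 or library 1 of NPCs with IGF-1) ended calls for the annotated chain (-3.64 to -2.46 points), the number of isoforms (1336 to 1852), of genes (509.5 to 722.5), and retained introns (2.11 to 3.34 points), and leaving out NPC library 1 made isoforms over more than 1 gene pass (-0.184 to -0.0575). Levels near 1 FPKM and isoforms under 10% of the strongest transcript are the limit of these files.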
